A study of Sus scrofa with 9 samples.

Results

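Transcripts that lie wholly within the introns of annotated genes were examined in RNA-seq data of pig blastocysts, embryos whose outer cell layer, the trophectoderm, has formed an epithelium around a cavity. They are the transcripts with class code i in the authors' deposited transcript table, a code given by the assembly software to a transcript contained in an intron of a reference gene. The table held 12606 of them among 147461 transcripts, or 8.55%. They came from 10853 loci and lay in 4638 host genes, of which 3807 had a recognised symbol.

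The series concerns INO80, an ATPase that moves nucleosomes as the core of a larger complex, and the barrier that trophectoderm cells form. All 9 samples were labelled as total RNA of porcine blastocysts, with no strain, age or pool of embryos given. The sample labels name 3 samples with no siRNA, 3 with a control siRNA and 3 with an INO80 siRNA, while the titles of those last 3 name a sham injection of water. The table has 3 columns for uninjected embryos, 3 for a water sham and 3 for INO80 siRNA, and none for a control siRNA. Titles tie the uninjected and the water sham columns to samples, but the water sham samples carry the INO80 siRNA characteristic, and the INO80 siRNA columns match no title. Columns are therefore called here by their headers, and the division on which all labels are at one is 3 uninjected against 6 injected columns. Nothing says that the samples of a set came from separate pools of embryos, and the spread that p-values rest on may be technical.

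Introns are removed from a primary transcript by splicing and are mostly degraded. RNA that maps within them can come from unspliced precursor, from genes nested in the intron, from transcribed enhancers, or from transposable elements with their own promoters. Early embryos are known for broad transcription of transposable elements.

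The targeted gene was checked first. INO80 had no full-match transcript in the table and 4 transcripts that share a splice junction with the annotation. Their summed level was 0.926, 3.1 and 1.96 FPKM in the uninjected columns, 2.39, 2.16 and 2.9 FPKM in the water sham columns, and 1.43, 4.41 and 7.91 FPKM in the INO80 siRNA columns. FPKM is a fragment number scaled to the length of the transcript and the size of the library. The longest of them by exons, with 36, had 0.445, 0.634 and 1.96 FPKM, then 1.61, 0.444 and 1.13 FPKM, then 0.0844, 0.792 and 0.855 FPKM in the same order. Neither the sum nor the 36-exon transcript separated the INO80 siRNA columns from the others, and the 3 sets overlapped in both. Every direction below is one between columns as labelled.

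Depth and embryo markers touch all the values. The table gives no read totals. In the 6 uninjected and water sham columns, 1 FPKM stood for 4.57 to 5.57-fold mean coverage, so these libraries were of like depth. Summed levels of 15 measured trophectoderm genes ranged from 1680 to 9842 FPKM across the 9 columns, those of 7 epiblast genes from 52.8 to 180 FPKM, those of 7 genes of cumulus and granulosa cells from 33.0 to 188 FPKM and those of 3 blood genes from 0.716 to 33.5 FPKM. No measured marker of these lists was at 0 in all columns. Their part in the results was not tested. In bulk samples, fewer cells of a type and less RNA per cell cannot be told apart.

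The class code was checked against the table's own positions. A full-match host transcript, meaning a listed transcript that matches the annotation exactly, was present for 12032 of the 12606 transcripts. Of these, 11996 lay inside the outer bounds of their host, or 99.7%. The table does not hold exon positions, so the introns themselves were not checked.

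Most transcripts within introns were short and simple. A single exon made up 6868 of them, or 54.5%, and 5278 had 2 exons, 397 had 3, 40 had 4, 10 had 5 and 13 had 6 or more. Exonic length had a median of 267 bases in both the single-exon and the multi-exon transcripts, and ran from 191 to 6494 bases. Altogether 8356 transcripts, or 66.3%, were 300 bases or shorter, and 929, or 7.37%, reached 1000 bases. Full-match transcripts had a median length of 1672 bases and a median of 7 exons. In their length the intronic transcripts resembled the unannotated transcripts outside genes, with a median of 265 bases, those antisense to exons, with 264 bases, and those with other exonic overlap, with 263 bases.

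**Figure D1:**
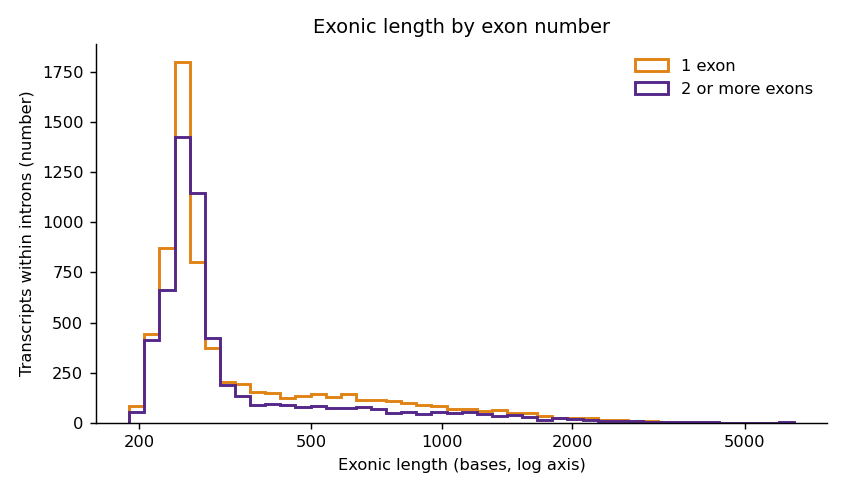
Exonic length (bases, log axis) of the 12606 transcripts within introns, as the number of transcripts per bin, for those with 1 exon and those with 2 or more. Both distributions peak near their shared median of 267 bases, and few transcripts exceed 1000 bases.

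Spliced transcripts within introns spanned far more of the genome than their exons. From first to last base the multi-exon transcripts covered a median of 5959 bases, with quartiles of 2282 and 15556 bases, and the widest covered 144943 bases. Where both strands were known, 2525 multi-exon transcripts lay on the strand of the host and 2999 on the opposite strand. Same-strand and opposite-strand transcripts had nearly the same median length, 269 and 267 bases, and median levels of 2.41 and 2.04 FPKM. Of the single-exon transcripts, 5257 had no strand. No source used here states the strand setting of the libraries, and the reads of a gene and its antisense partner cannot then be told apart.

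Host genes were long genes. Annotated genes with a transcript in an intron had a median span of 62588 bases, against 9834 bases for annotated genes without one. Among genes that span under 10000 bases 2.67% were hosts, among those of 10000 to 100000 bases 32.3%, and among those of 100000 bases or more 85.8%. Along the host, counted from its 5′ end, successive parts of equal length held 21.4%, 23.8%, 21.2%, 19.1% and 14.4% of the 11968 transcripts that could be placed. Positions are those of the table, and no source used here names its pig assembly. Chromosome 1 held 11.9% of the intronic and 8.84% of the full-match transcripts, while chromosome X held 5.2% and 7.48%.

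A minority of hosts held many transcripts each. A single one was found in 2162 hosts, or 46.6%, while 173 hosts had 10 or more and together held 2340. BMPR2, a receptor for bone morphogenetic proteins, held the most, with 39 transcripts from 3 loci, all of them spliced. ARHGAP6 held 36 from 23 loci. LRBA, a regulator of vesicle trafficking, held 29 from 29 loci, of which 27 were single-exon. Next came ABTB2 with 28 from 25 loci, and then DMD, which encodes dystrophin of the muscle membrane, with 25. The transcripts in BMPR2 summed to 79.7, 439 and 51.7 FPKM in the uninjected columns, 72.3, 95 and 26.4 FPKM in the water sham columns and 75.1, 129 and 327 FPKM in the INO80 siRNA columns. Single columns stood out in the uninjected and the INO80 siRNA sets, and all 3 sets overlapped. The LRBA sums were more even, at 13.6 to 30.5 FPKM over the 9 columns.

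Many transcripts within introns were of low level and present in only some columns, as were many of other classes. The median of the mean FPKM over 9 columns was 1.37 for the intronic and 0.281 for the full-match transcripts. Junction-sharing transcripts had 1.12 FPKM and transcripts outside genes 1.51 FPKM. Intronic transcripts are listed only where reads were assembled, whereas full-match ones carry annotation IDs and can be listed with almost no reads. These medians therefore do not rank the classes by expression. Among intronic transcripts a mean of 1 FPKM was reached by 7386, of 10 FPKM by 1131 and of 100 FPKM by 40. They were above 0 in all 9 columns in 4170 cases, or 33.1%, and in a single column in 866 cases. Full-match, junction-sharing and transcripts outside genes were above 0 in all 9 columns in 37.7%, 33.5% and 34.9% of cases. Spliced intronic transcripts were higher and more regularly present than single-exon ones. Their median level was 2.22 against 0.881 FPKM, and 48.1% against 20.5% were above 0 in all columns.

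The level of these transcripts was nearly unrelated to that of the full-match transcripts of the host. Where the full-match transcripts of the host averaged under 0.1 FPKM, the median intronic transcript had a mean of 1.33 FPKM, and with hosts at 0.1 to 1 FPKM, 1 to 10 FPKM and 10 FPKM or more the medians were 1.2, 1.54 and 2.2 FPKM. Across the 12032 transcripts the Spearman correlation between the 2 means was 0.0636, a description only, since transcripts of a host share its level and all share the same libraries. The intronic transcript had the higher mean in 8765 of the 12032 cases, or 72.8%. That was so for 3150 of 3152 transcripts with a host under 0.1 FPKM and for 20 of 552 with a host at 10 FPKM or more. Hosts were grouped here by their own level. In the whole table full-match transcripts had a median of 0.281 FPKM and intronic ones of 1.37 FPKM. Both counts therefore follow in large part from the grouping. They, and the like intronic medians across host levels, also reflect that intronic transcripts are listed only where reads were assembled. When junction-sharing transcripts were counted with the host, the intronic transcript was higher in 7126 of 12220 cases. The correlation was not computed with them, and some hosts had most of their level in such transcripts.

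**Figure D2:**
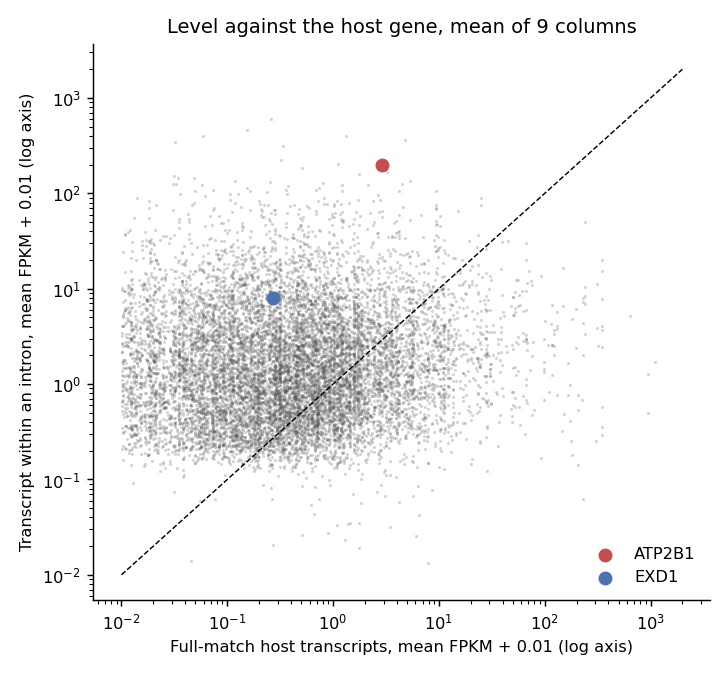
Mean FPKM + 0.01 over 9 columns of each transcript within an intron (log axis) against that of the full-match transcripts of its host (log axis), for 12032 transcripts, with equality as a dashed line. The cloud is flat across host levels, and the marked transcripts in ATP2B1 and EXD1 lie above the line, at 198 FPKM with a host at 2.9 FPKM and at 8.02 FPKM with a host at 0.258 FPKM.

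Hosts that were themselves expressed exceeded their intronic transcripts in the median case. Pairs were kept by the level of the host, with no floor on the intronic transcript. A median ratio below 1 therefore follows in large part from that choice. With hosts at 1 FPKM or more in a column, the median ratio of intronic to host level was 0.137, 0.307 and 0.278 in the uninjected columns, 0.144, 0.252 and 0.0747 in the water sham columns, and 0.304, 0.278 and 0.421 in the INO80 siRNA columns. Its mean was 0.244 ± 0.107 (SD, n = 9). Water sham column 3 was the lowest and INO80 siRNA column 3 the highest. The uninjected set overlapped both others, and the water sham columns lay below the INO80 siRNA columns.

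The named transcripts of highest mean level were short and lay mostly in hosts of low level. The highest in a host with a symbol lay in MAOB, the monoamine oxidase that breaks down amine transmitters, at X chromosome positions 43440427 to 43440970, on the strand opposite to the host, with 2 exons and 262 bases. It had 1329, 405 and 182 FPKM in the uninjected columns, 133, 606 and 133 FPKM in the water sham columns and 764, 309 and 286 FPKM in the INO80 siRNA columns, while MAOB itself averaged 0.145 FPKM. This transcript was high in every column and the sets overlapped. ADAMTS20, a secreted metalloproteinase, held a single-exon transcript of 339 bases at 84.9 to 891 FPKM, with the host at 0.0221 FPKM.

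Others of this rank were at 0 or far lower in some columns. A 415-base transcript in TTC21B, a component of transport within cilia, had 328 to 813 FPKM in 7 columns and was listed at 0 in uninjected column 3 and INO80 siRNA column 1. A 364-base transcript in ERBB3, a receptor of the epidermal growth factor receptor family, was listed at 0 in uninjected column 2 and water sham column 2, with 247 to 771 FPKM elsewhere. In CUL3, the scaffold of a ubiquitin ligase, a 300-base transcript had 852, 726 and 3.83 FPKM, then 254, 248 and 6.29 FPKM, then 607, 151 and 448 FPKM in the uninjected, water sham and INO80 siRNA columns. The 268-base transcript in CDH19, a cadherin, ran from 2.36 FPKM in uninjected column 1 to 1110 FPKM in INO80 siRNA column 3. In PDZRN3, a ubiquitin ligase, a 289-base transcript had 1734, 902 and 32.0 FPKM in the uninjected columns and 9.28 to 75.4 FPKM in the injected ones. None of these 5 separated the uninjected from both injected sets, and in PDZRN3 uninjected column 3 lay within the injected range.

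Intronic transcripts varied more between columns than annotated transcripts of the same level. At a mean of 1 to 5 FPKM the median coefficient of variation over the 9 columns was 1.12 for the intronic and 0.692 for the full-match transcripts. At 5 to 20 FPKM the values were 1.0 and 0.531, and at 20 FPKM or more 0.927 and 0.433. Unannotated transcripts outside genes had 1.14, 1.05 and 1.02 and so varied about as much as the intronic ones. The Spearman correlation between columns, over intronic transcripts with a mean of at least 1 FPKM, averaged 0.377 within and 0.374 between sets. For full-match transcripts the averages were 0.748 and 0.742. Columns of a set thus resembled each other no more than columns of different sets, in both classes.

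Length went with this spread. At 1 to 5 FPKM the median coefficient of variation of the intronic transcripts was 1.21 for those of 300 bases or shorter, 0.998 for those of intermediate length and 0.881 for 1000 bases or longer. Transcripts outside genes had 1.2, 1.04 and 0.874 in the same order. The longest intronic transcripts in hosts with a symbol included steady and variable ones. A 2-exon transcript of 6172 bases in EXD1, a protein of the piRNA pathway, at chromosome 1 positions 145267691 to 145274284 and on the strand of the host, had 8.59, 7.89 and 7.84 FPKM in the uninjected columns, 7.03, 6.05 and 8.95 FPKM in the water sham columns and 8.06, 10.4 and 7.44 FPKM in the INO80 siRNA columns. Its coefficient of variation was 0.152, while its host averaged 0.258 FPKM and reached 0.982 FPKM at most. By contrast a 5524-base transcript in ENOX1 was above 0 in 3 columns only, at 0.395, 2.31 and 0.625 FPKM, and a 4914-base transcript in DMXL1 had 0 to 2.59 FPKM.

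Several steady transcripts, chosen after their values were seen for the lowest coefficients of variation, were long single exons. In ROCK2, a kinase of the actomyosin cytoskeleton, a 2011-base transcript had 15.5 to 25.1 FPKM over the 9 columns with full-match host transcripts at 0.398 FPKM, or 6.17 FPKM with junction-sharing ones. A 1581-base transcript on the strand of GLT8D2 had 19.2 to 37.9 FPKM with the host at 0.0771 FPKM, and a 720-base transcript in SANBR had 15.8 to 35.1 FPKM with the host at 0.249 FPKM. Spliced or short ones in the cadherin gene CDH12 and the adhesion gene DSCAML1 had 3.0 to 13.2 and 2.48 to 9.19 FPKM, each lowest in water sham column 3. Among hosts with a symbol, the transcripts with the most exons were 2 of 12 exons antisense to VPS13D, a lipid transfer protein, and 1 of 7 exons antisense to FAM50A, a nuclear protein linked to splicing. The first VPS13D transcript, of 1604 bases, had 0.402 to 10.1 FPKM, and the second, which differs little in its bounds, was above 0 in 2 columns. The FAM50A transcript had 0 to 24.6 FPKM.

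ATP2B1 encodes a calcium pump of the plasma membrane that expels calcium from the cell. Its intron held a 2-exon transcript of 326 bases, MSTRG.63935.1, at chromosome 5 positions 97605152 to 97613074, on the plus strand like the host and 10.9% along it from the 5′ end. Its level was 1.76, 2.05 and 2.72 FPKM in the uninjected columns, 0.57, 507 and 77.2 FPKM in the water sham columns, and 155, 638 and 401 FPKM in the INO80 siRNA columns. All 3 INO80 siRNA columns and 2 of 3 water sham columns lay above the uninjected range, and water sham column 1 lay below it. The host's full-match transcript had 4.47, 1.77 and 1.84, then 1.58, 2.92 and 4.44, then 1.18, 1.37 and 6.51 FPKM in the same order. The host sets overlapped and did not follow the intronic transcript.

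No comparison of this ATP2B1 transcript passed the threshold. On the log2(FPKM + 1) scale the difference between INO80 siRNA and uninjected columns was 6.76 ± 1.6 (SE), with an unadjusted p of 0.0013 and an adjusted p of 0.623 in limma, a moderated linear model fitted across all transcripts. Adjusted p ranged from 0.0862 to 0.839 over the alternative settings. Water sham against uninjected columns differed by 3.65 ± 1.6 (SE) with a limma adjusted p of 0.938, and INO80 siRNA against water sham columns by 3.11 ± 1.6 (SE) with a limma adjusted p of 0.614. Single water sham columns moved both values, to 5.98 and 0.78 without column 1 and to 1.81 and 4.95 without column 2. All injected against uninjected columns differed by 5.21 ± 1.39 (SE), with a limma adjusted p of 0.941. A second transcript in ATP2B1, single-exon and 223 bases long, was listed at 4.69 FPKM in water sham column 1 and at 0 in the other 8.

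Other calcium pump genes were hosts too. Of 9 listed pump genes 5 held 18 transcripts within introns, of which 14 were tested and none passed. A 2-exon, 460-base transcript on the strand of ATP2B2 had 22.1, 22.6 and 30.2 FPKM in the uninjected, 45.9, 29.0 and 40.7 FPKM in the water sham and 15.7, 20.5 and 27.8 FPKM in the INO80 siRNA columns. It was present throughout, with its host at 0.0292 FPKM, and the INO80 siRNA and water sham sets did not overlap. ATP2C1, a pump of the Golgi, held a 251-base antisense transcript with 13.2, 56.5 and 0.949 FPKM in the uninjected columns and 0.25 to 7.7 FPKM in the injected ones.

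Within introns of INO80 complex genes there were 14 transcripts in 3 of 15 listed genes, all tested and none passing. INO80 itself held 2. The 742-base one had 13.7, 24.1 and 5.19 FPKM in the uninjected columns, 5.69, 0.851 and 3.97 FPKM in the water sham columns and 10.6, 0.078 and 0.0952 FPKM in the INO80 siRNA columns, and the sets overlapped. A 540-base single-exon transcript on the strand of INO80D was listed at 0 in all 3 INO80 siRNA columns, with 0.405, 4.06 and 3.77 FPKM in the uninjected and 1.4, 1.65 and 2.65 FPKM in the water sham columns. UCHL5, a deubiquitinase of the complex, held the other 11. The highest of them had 10.3, 14.9 and 6.64, then 4.58, 11.1 and 5.28, then 12.1, 9.31 and 20.9 FPKM, and these sets overlapped.

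Genes of cell junctions, which seal the trophectoderm, held 20 transcripts in 6 of 18 listed genes, of which 18 were tested and none passed. OCLN, a membrane protein of tight junctions, held an antisense 3-exon transcript of 245 bases with 18.4, 97.2 and 48.1 FPKM in the uninjected, 7.21, 9.61 and 6.3 FPKM in the water sham and 73.6, 11.2 and 22.2 FPKM in the INO80 siRNA columns. The water sham columns lay below every other column. In CTNND1, which encodes p120 catenin of adherens junctions, a 3-exon transcript of 4180 bases on the strand of the host had 0.8 to 11.1 FPKM, with full-match host transcripts at 0.0473 FPKM. An antisense single-exon transcript in CTNNA1, which encodes alpha catenin, had 0, 0.378 and 2.82 FPKM, then 1.39, 0.533 and 0.735 FPKM, then 3.41, 6.38 and 7.55 FPKM in the uninjected, water sham and INO80 siRNA columns. The INO80 siRNA columns were the 3 highest, with unadjusted limma p-values of 0.0143 against uninjected and 0.0183 against water sham columns.

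Of 16 trophectoderm genes only TEAD4, a transcription factor of that lineage, was a host, with 2 antisense transcripts. One of them had 2.24, 7.6 and 2.11 FPKM in the uninjected and 0.301, 2.84 and 0.378 FPKM in the water sham columns, and was listed at 0 in the 3 INO80 siRNA columns. The other had 2.5, 6.89 and 2.05, then 0.28, 1.66 and 0.419, then 1.41, 0.471 and 4.35 FPKM. Both were called by no test. The transcripts of their locus summed to 26.5 to 79.0 FPKM in the uninjected and 39.2 to 78.3 FPKM in the INO80 siRNA columns. In the water sham columns they summed to 9.27 to 33.5 FPKM, below every INO80 siRNA column. None of the 8 epiblast, 15 small nucleolar RNA host, 8 cumulus and granulosa or 5 blood genes listed held a transcript of this class.

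**Figure D3:**
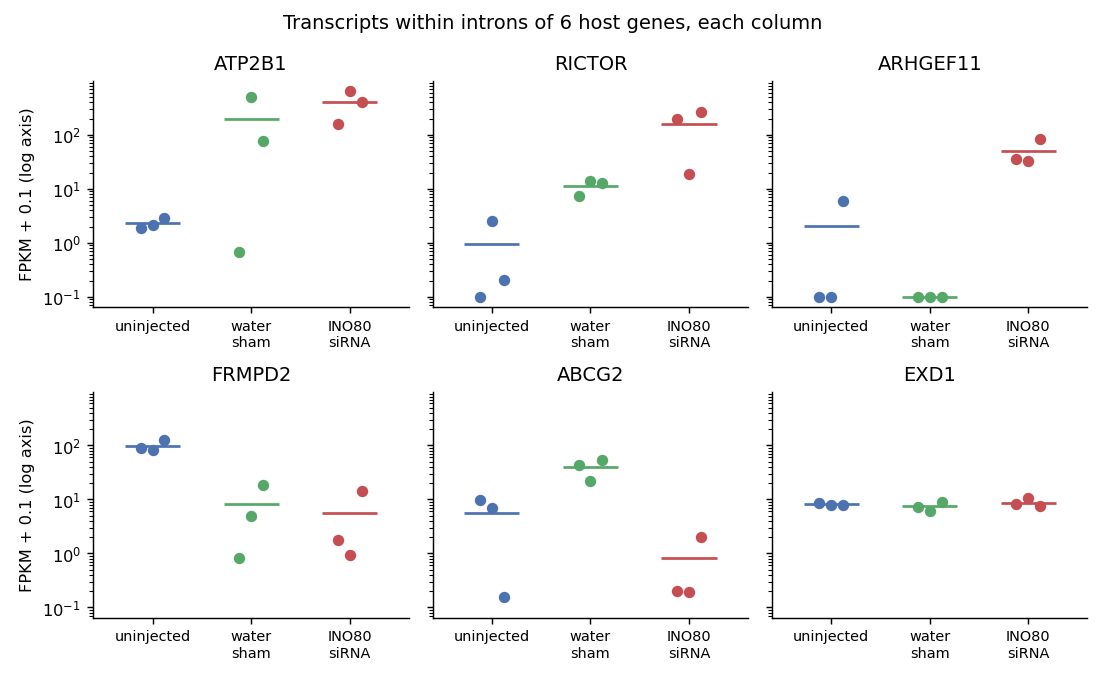
FPKM + 0.1 (log axis) of transcripts within introns of 6 host genes in each of the 9 columns, as points, with the mean of each set of 3 columns as a line. In ATP2B1 water sham column 1 stands apart from the other injected columns, RICTOR reaches its highest values in INO80 siRNA columns, and EXD1 lies between 6.05 and 10.4 FPKM throughout.

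The shift between the sets was tested for 9779 transcripts within introns that reached a mean of 1 FPKM in at least 1 set, in the fit of all 111564 transcripts that did so. None was called at a Benjamini-Hochberg adjusted p of 0.05 in limma, in any of the 4 comparisons. Over all transcripts 0.00538% were called between INO80 siRNA and uninjected columns, 0.000896% between water sham and uninjected columns, 0.00448% between INO80 siRNA and water sham columns and 0.00269% between injected and uninjected columns. The lowest adjusted p of an intronic transcript in limma was 0.175, 0.748, 0.188 and 0.432 in that order. The 3 comparisons between sets share columns with one another.

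Counts at an unadjusted limma p under 0.05 had the same predominant direction as in the whole table in each comparison. Between INO80 siRNA and uninjected columns 424 intronic transcripts were higher and 125 lower, or 4.34% and 1.28%, beside 4.14% and 1.29% of all transcripts. For water sham against uninjected columns 52 were higher and 290 lower, or 0.532% and 2.97%, beside 0.916% and 3.07%. With INO80 siRNA against water sham columns 656 were higher and 41 lower, or 6.71% and 0.419%, beside 6.93% and 1.25%. Quantile normalization, which gives each column the same distribution, turned those 3 splits into 252 higher and 191 lower, 177 and 215, and 271 and 195. For injected against uninjected columns there were 124 higher and 222 lower, or 1.27% and 2.27%, beside 1.3% and 2.16%.

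Counts of transcripts whose sets did not overlap gave a like picture. INO80 siRNA columns were all above the uninjected columns for 817 intronic transcripts, or 8.35%, and all below for 219, or 2.24%, beside 7.57% and 2.62% of all transcripts. Water sham columns were all above uninjected columns for 157, or 1.61%, and all below for 597, or 6.1%, beside 2.52% and 6.09%. INO80 siRNA columns were all above water sham columns for 1273, or 13.0%, and all below for 153, or 1.56%, beside 12.5% and 3.18%. These shares lie near those of the whole table. They differ most for transcripts lower in INO80 siRNA than in water sham columns, a difference that was not tested. At an unadjusted limma p under 0.05 such lower transcripts were 0.419% of the intronic ones and 0.428% of those outside genes. Among full-match transcripts they were 5.85%. By that measure the low share was not particular to introns.

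As a body the intronic transcripts shifted with the table and against the annotated transcripts. Their median log2 difference on the log2(FPKM + 1) scale was 0.23 between INO80 siRNA and uninjected columns, -0.31 between water sham and uninjected columns and 0.55 between INO80 siRNA and water sham columns. All transcripts tested had medians of 0.21, -0.23 and 0.51, while full-match transcripts had -0.21, 0.16 and -0.36. Between the INO80 siRNA and the water sham columns, whose medians differed most, some marker sums did not overlap either. Epiblast genes summed to 52.8, 113 and 84.4 FPKM in the INO80 siRNA and 180, 134 and 123 FPKM in the water sham columns. Genes of cumulus and granulosa cells summed to 42.0, 37.0 and 41.8 FPKM against 42.3, 126 and 188 FPKM, so they were apart only by 42.0 against 42.3 FPKM. Trophectoderm and blood sums overlapped. Full-match transcripts as a whole had a median of -0.36 in the same comparison. The part of any of these sums in the shift was not tested. Single columns moved these intronic medians by over 1.5 times. The first was 0.03 without INO80 siRNA column 3, 0.09 without uninjected column 3 and 0.38 without uninjected column 2. The second was -0.11 without water sham column 3, -0.17 without uninjected column 2 and -0.54 without water sham column 2, and the last was 0.33 without water sham column 3. Between injected and uninjected columns the median was -0.01 for the intronic and 0.02 for all transcripts. Quantile normalization brought the first 3 intronic medians to -0.00, -0.06 and 0.07. In 2862 pairs of an intronic transcript and a host that were both tested, the medians were 0.16, -0.31 and 0.5 for the intronic transcripts and -0.16, 0.16 and -0.36 for their hosts. Long intronic transcripts differed from short ones here. The 613 tested transcripts of 1000 bases or longer had medians of -0.37, -0.29 and -0.08, and the 6962 of 300 bases or shorter had 0.35, -0.3 and 0.67. Transcripts outside genes also differed by length, so this was not particular to introns. Their medians were -0.12, -0.1 and -0.01 at 1000 bases or longer, and 0.4, -0.34 and 0.75 at 300 bases or shorter.

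**Figure D4:**
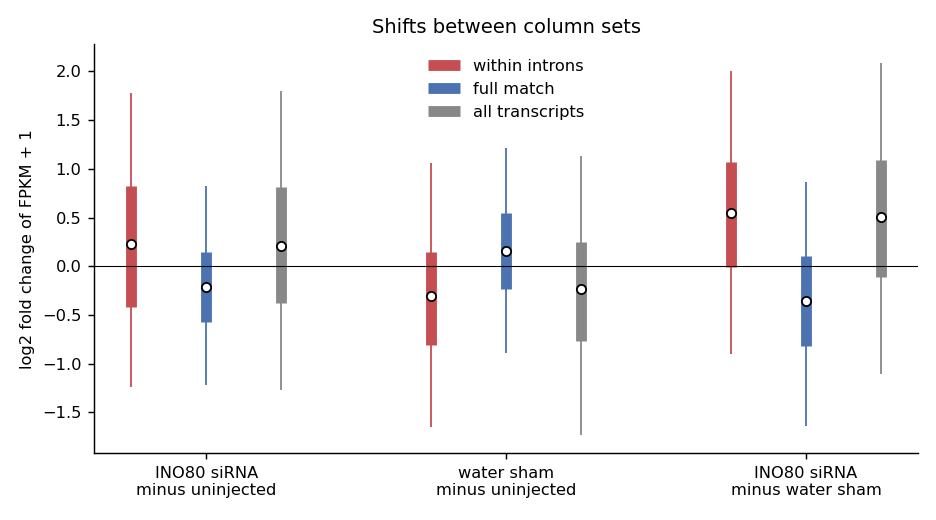
Differences in log2(FPKM + 1) between sets of columns for 9779 transcripts within introns, 7482 full-match transcripts and all 111564 transcripts tested, with the median as a dot, the quartiles as a bar and the 5th to 95th percentiles as a line. The intronic medians of 0.23, -0.31 and 0.55 lie close to those of all transcripts and opposite in sign to those of full-match transcripts.

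The share of a library's signal in transcripts within introns varied by column. With signal taken as FPKM times exonic length, they made up 2.58%, 3.62% and 2.07% in the uninjected columns, 1.59%, 2.81% and 1.11% in the water sham columns and 2.82%, 2.45% and 4.05% in the INO80 siRNA columns. The means were 2.76 ± 0.79% (SD, n = 3), 1.84 ± 0.876% (SD, n = 3) and 3.11 ± 0.838% (SD, n = 3), and all 3 sets overlapped. Unannotated transcripts outside genes took 7.84% of the signal in water sham column 3 and 28.1% in INO80 siRNA column 3, which were the lowest and the highest column for both classes. Full-match transcripts took 53.6% and 31.9% in those columns, their own extremes. What sets these columns apart was not tested.

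Short transcripts made most of the difference. Intronic transcripts of 300 bases or shorter took between 0.404% and 2.69% of a column's signal, and those of 1000 bases or longer between 0.199% and 0.536%. The 100 highest intronic transcripts of each column held 24.3% to 34.8% of the class's signal. Single-exon transcripts held 38.6% to 47.6%.

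**Figure D5:**
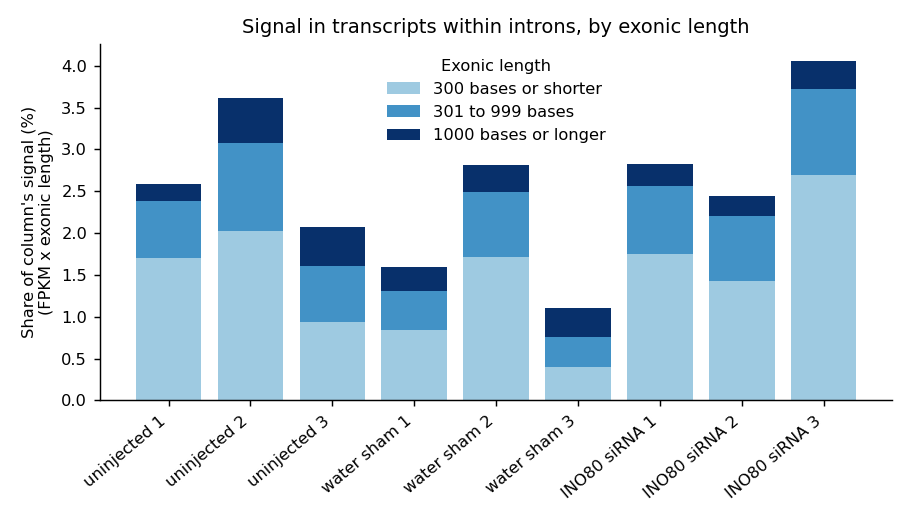
Share of each column's signal (FPKM times exonic length, %) in transcripts within introns, stacked by exonic length, for 3 uninjected, 3 water sham and 3 INO80 siRNA columns. The share runs from 1.11% in water sham column 3 to 4.05% in INO80 siRNA column 3, and most of that range lies in transcripts of 300 bases or shorter.

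Intronic transcripts among those with the smallest p in each comparison are given next, none of which passed. RICTOR, a subunit of an mTOR kinase complex, held an antisense 3-exon transcript with 0, 2.46 and 0.105 FPKM in the uninjected, 7.34, 13.9 and 12.6 FPKM in the water sham and 192, 18.6 and 259 FPKM in the INO80 siRNA columns. The log2 difference between INO80 siRNA and uninjected columns was 5.99 ± 1.0 (SE), with a limma adjusted p of 0.223. All transcripts of that locus together had 8.95 to 192 FPKM in the uninjected and 54.8 to 351 FPKM in the INO80 siRNA columns, which overlap.

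ARHGEF11 held an antisense 2-exon transcript with 35.0, 32.6 and 83.5 FPKM in the INO80 siRNA columns. It was listed at 0 in the 3 water sham columns and in 2 uninjected columns, and had 5.88 FPKM in uninjected column 3. Its limma adjusted p was 0.188 against water sham and 0.297 against uninjected columns. The locus summed to 7.13 to 29.1 FPKM in the water sham and 62.4 to 95.8 FPKM in the INO80 siRNA columns, and these did not overlap either.

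Lower in the INO80 siRNA than in the uninjected columns was a 249-base transcript in FRMPD2, a FERM and PDZ domain protein. It had 88.2, 83.3 and 126 FPKM in the uninjected, 0.709, 4.81 and 18.4 FPKM in the water sham and 1.66, 0.846 and 14.3 FPKM in the INO80 siRNA columns. All 6 injected columns lay below the uninjected ones, and the log2 difference between INO80 siRNA and uninjected columns was -4.55 ± 1.03 (SE), with a limma adjusted p of 0.559. SCLT1, a protein of centriole appendages, held a 262-base transcript with the same order, at 26.2, 87.3 and 40.1 FPKM in the uninjected and 0 to 6.44 FPKM in the injected columns. An antisense transcript in SNAP23, a membrane fusion protein, had 11.1, 7.82 and 9.45 FPKM in the uninjected and 0 to 0.116 FPKM in the INO80 siRNA columns. Its locus of 19 transcripts summed to 25.7 to 30.4 FPKM in the uninjected and 32.4 to 40.8 FPKM in the INO80 siRNA columns, so the locus as a whole, with transcripts of any class, did not go the same way.

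Higher in the water sham than in the uninjected columns, with the smallest p, was a 247-base transcript in ITGBL1, an integrin-like secreted protein. It had 3.56, 3.71 and 1.48 FPKM in the uninjected, 1586, 170 and 78.7 FPKM in the water sham and 129, 7.08 and 16.0 FPKM in the INO80 siRNA columns. All injected columns lay above the uninjected ones, and the log2 difference of the water sham columns was 6.21 ± 1.21 (SE), with a limma adjusted p of 0.748. FAF1, a ubiquitin-binding protein, held one listed at 0 in the uninjected columns, with 1.66, 22.9 and 4.61 FPKM in the water sham columns. Its locus summed to 11.7 to 20.9 FPKM in the uninjected and 4.73 to 39.7 FPKM in the water sham columns, which overlap. On the other side, a transcript within R3HDM2 had 141, 189 and 130 FPKM in the uninjected and 2.62, 4.86 and 4.23 FPKM in the water sham columns. One within NCK1, an adaptor of receptor signalling, had 42.8, 41.4 and 33.3 against 0.373, 5.92 and 2.01 FPKM. One within SLC2A13, a transporter of inositol, had 4.09, 5.81 and 9.09 against 0, 0 and 0.601 FPKM. These last 3 intronic transcripts had 8.47 to 208, 21.9 to 46.5 and 3.73 to 5.91 FPKM in the INO80 siRNA columns. All of these values lay above the water sham columns. The R3HDM2 locus, with all its transcripts summed, had 22.7 to 90.7 FPKM in the water sham and 39.8 to 422 FPKM in the INO80 siRNA columns, which overlap. In the uninjected columns that locus had 163 to 407 FPKM, above the water sham columns.

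Between INO80 siRNA and water sham columns the lower transcripts included a 261-base one in ABCG2, an efflux transporter, on the strand of its host. It had 43.5, 22.1 and 54.0 FPKM in the water sham, 0.101, 0.0931 and 1.94 FPKM in the INO80 siRNA and 9.53, 6.96 and 0.058 FPKM in the uninjected columns. The log2 difference was -4.65 ± 0.936 (SE), with a limma adjusted p of 0.414. ABCG2 itself was well expressed, with 120, 57.6 and 215 FPKM in the water sham and 25.6, 24.2 and 34.1 FPKM in the INO80 siRNA columns. Host and intronic transcript were thus both higher in the water sham columns, without overlap.

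HHAT, which attaches palmitate to Hedgehog proteins, held a transcript with 15.9, 49.0 and 11.4 FPKM in the water sham and 0, 1.5 and 1.96 FPKM in the INO80 siRNA columns. RASGRF2, an activator of Ras, held one with 9.62, 63.7 and 10.1 against 0, 0.0324 and 0.108 FPKM. The loci of both overlapped between these sets when all their transcripts were summed, at 11.4 to 49.0 and 1.53 to 18.2 FPKM for HHAT and 14.3 to 236 and 128 to 159 FPKM for RASGRF2. Higher in the INO80 siRNA columns were transcripts antisense to DENND4C, a regulator of Rab GTPases, with 32.0, 20 and 36 against 0, 0 and 3.24 FPKM, and to HLCS, the enzyme that attaches biotin to carboxylases, with 6.18, 3.5 and 9.64 against 0, 0.255 and 0.117 FPKM. The DENND4C locus overlapped between these sets, at 20 to 36 and 3.24 to 22.0 FPKM, and the HLCS locus did not, at 8.68 to 28.1 and 1.69 to 7.18 FPKM. Limma adjusted p was 0.545, 0.585, 0.414 and 0.43 for HHAT, RASGRF2, DENND4C and HLCS.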

How the data were processed

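RNA-seq values of 9 pig blastocyst samples were read from the authors' deposited transcript table, as FPKM, mean coverage signal, exonic length, exon number and position. Per the submitters' processing notes, the tools were, with no role or version given, ChIPseeker, HOMER, edgeR, StringTie, HISAT2 and fastp. The notes name a human build, while the table's IDs are those of pig genes. No source used here states the filters, the annotation or the strand setting. Coverage was used only for the depth of 6 columns, and 3 per-sample columns (coverage of the INO80 siRNA set) were not used, nor was the gene table. Full-match transcripts, whose code the table writes as 0, all had Ensembl transcript IDs. Of 1537 Ensembl IDs used as host names 706 matched a symbol.

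The table holds no counts, so limma 3.58.1 (R 4.3.3; two-sided, with trend and robust moderation) was run on log2(FPKM + 1), in 1 fit of 9 columns over transcripts whose mean reached 1 FPKM in some set. Adjustment was by Benjamini-Hochberg over all transcripts tested, with a threshold of 0.05. This scale understates changes of low transcripts, and FPKM depends on the rest of the library. The method was tested on simulated data with large planted changes and a spread capped below that of many transcripts here. That simulation does not show how many changes would be found at the spread of these data. Alternatives were a pseudocount of 0.1, no filter, a minimum of 5 FPKM, quantile normalization, the replicate number as a block, the columns of a comparison alone, each column left out, intronic and full-match transcripts alone, signal as FPKM alone, and other host definitions. Scaling to the signal of full-match transcripts was chosen after seeing the data. Tables were handled with Python 3.11.15, pandas 2.3.3 and numpy 2.4.6, and figures drawn with matplotlib 3.10.9.

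Members and lists were chosen with earlier results of these data known. Transcripts were named by rule among those whose host had a recognised symbol: those of ATP2B1, the 8 of highest mean, the 3 of smallest p per comparison and direction where none passed, the 3 with most exons, the 3 longest, the hosts with most transcripts, and the highest of each list. A few items that meet this rule are left out of the text. The steady ones and further list members were chosen after their values were seen.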

Additional observations from a re-analysis of the deposited data

Results flagged for a closer look

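Among 45 values examined over the 6 injected columns, 13 had a column set apart from the rest by a gap larger than Dixon's test allows at the 95% level. Chance flags about 1 in 20 such groups, and the values are skewed FPKM. The uninjected set, with 3 columns, was not examined this way.

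Water sham column 2 was the high column for the transcripts in SNAP23 at 7.42 FPKM, FAF1 at 22.9 FPKM, HHAT at 49.0 FPKM and RASGRF2 at 63.7 FPKM. Water sham column 1 stood apart for ITGBL1 at 1586 FPKM and for the second ATP2B1 transcript at 4.69 FPKM, where the other 5 injected columns were at 0. Water sham column 3 was high for the second VPS13D transcript at 2.25 FPKM and ENOX1 at 2.31 FPKM, and low for CDH12 at 3.0 FPKM.

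INO80 siRNA column 1 was high for the intronic transcript in OCLN at 73.6 FPKM and column 2 for that in R3HDM2 at 208 FPKM. Column 3 was high for those in PDZRN3 at 75.4 FPKM and TEAD4 at 4.35 FPKM. The main ATP2B1 transcript was not among them.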

How the results depend on the processing

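The count of intronic transcripts called by limma stayed at 0 in all 4 comparisons with no filter, a minimum of 5 FPKM, quantile normalization, the replicate block, the columns of a comparison alone, intronic and full-match transcripts alone, and full-match scaling. For injected against uninjected columns the fit of its own columns is the main one. With a pseudocount of 0.1 it was 1 between INO80 siRNA and uninjected columns. Leaving out 1 column gave 0 to 1 in that comparison, 0 to 1 for INO80 siRNA against water sham, 0 to 1 for injected against uninjected and 0 to 0 for water sham against uninjected columns. The transcript in RICTOR was called without INO80 siRNA column 2, and one in SPOCK3 without uninjected column 1. Another, above 0 only in INO80 siRNA columns 2 and 3, was called without column 1.

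The median difference between INO80 siRNA and water sham columns of 0.55 was 0.99 with a pseudocount of 0.1, 0.96 at a minimum of 5 FPKM and 0.07 after quantile normalization, and 0.33 to 0.78 with 1 column left out. For INO80 siRNA and for water sham against uninjected columns, leaving out 1 column gave 0.03 to 0.38 and -0.54 to -0.11, and for injected against uninjected columns -0.15 to 0.16. On FPKM alone the class held 5.45%, 4.25% and 5.77% of the uninjected, water sham and INO80 siRNA columns. With hosts at 5 FPKM or more the ratio to the host was 0.0852.

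Replicate numbers did not pair the columns, since correlations of same-numbered columns ran from -0.0436 to 0.0718. With the block, 0 transcripts were called in each comparison.

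Depth limits low values, and a transcript listed at 0 is not shown to be absent.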
